A study of Mus musculus with 16 samples.

Results

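The 9 genes described here, Tcf7, Lef1, Klf2, S1pr1, Ccr7, Il7r, Foxo1, Bach2 and Satb1, are genes of quiescent and central memory T cells. They were taken by name, all 9 were found among the 56748 genes of the deposited tables, and all 9 passed the filter on low counts in every comparison. RNA-Seq was analysed in 16 samples of memory T cells sorted from the spleen by surface markers that included CD4+, CD25 low or negative and CD44 high, in mice of a mixed 129/Sv x C57BL/6 background. In the HP1α line, 4 HP1a KO samples (Hp1a-/-, labelled HP1α KO in the plots, as HP1g KO is labelled HP1γ KO) were set beside 4 HP1a WT samples (Hp1a+/+ littermates). The floxed Hp1a gene of this line had been excised by a CMV-driven Cre, which acts in all tissues, so the KO cells came from animals lacking HP1α throughout. In the HP1γ line, 4 HP1g KO samples carried Hp1g flox/flox together with Cd4-cre, which acts in developing T cells, and 4 HP1g WT samples were flox/flox littermates without Cre, so that the Cre and the deletion cannot be told apart. The animals were sex-matched young adults. HP1α and HP1γ are chromatin proteins that bind methylated histone H3 lysine 9.

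These genes act in a connected program. FOXO1, a transcription factor held in check by antigen receptor and growth factor signals, activates Klf2, Il7r and Ccr7 in resting T cells, and KLF2 in turn activates S1pr1. S1PR1 is the receptor through which lymphocytes leave lymphoid organs, CCR7 is the chemokine receptor that guides them into the T cell zones of lymph nodes, and the IL-7 receptor α chain carries a survival signal. TCF1 (encoded by Tcf7) and LEF1 are related factors that keep T cells able to renew, BACH2 represses effector genes, and SATB1 organises chromatin during T cell development.

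The total estimated count was 26694045 to 40199637 per sample. Each of the 9 genes rested on at least 1543 estimated counts in any sample (Bach2) and up to 58237 (Tcf7). Cd4 lay between 1015 and 1370.3 CPM (counts scaled to the normalised total of each library) and Cd3e between 259 and 359, as in T cells. The targeted genes were read as a check of the labels. Cbx3, the gene of HP1γ, was at 50.3, 46.3, 45.9 and 47.5 CPM in HP1g KO replicates 1 to 4 and at 92.5, 90.2, 73.4 and 82.0 CPM in HP1g WT. On the log2 scale the KO differed by -0.82 (SE, the standard error, 0.079, adjusted p = 0.0015). Cbx5, the gene of HP1α, was at 28.7, 27.6, 23.0 and 29.0 CPM in HP1a KO and at 37.8, 54.0, 35.7 and 33.8 CPM in HP1a WT. All 4 Cbx5 values were lower in the KO, by -0.58 (SE 0.145) on the log2 scale, but its adjusted p was 0.946. Cbx5 was also at 20.1 to 29.8 CPM in HP1g KO, beside 27.1 to 37.4 CPM in HP1g WT. Between HP1a KO and HP1g KO it differed by only 0.096 (SE 0.13) on the log2 scale. Its level thus does not tell the KO of one line from that of the other. The counts cover whole genes and do not show which exons were lost. Nothing in the labels says whether replicates came from separate animals, so p-values measure the spread between these samples.

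The genes lie on 6 chromosomes of the GRCm39 build. Of the receptors, S1pr1 is at chr3:115504071-115508721 on the minus strand, Ccr7 at chr11:99035022-99045911 (minus) and Il7r at chr15:9505874-9530262 (minus). Of the factors, Foxo1 is at chr3:52175757-52260642 (plus), Klf2 at chr8:73072726-73075502 (plus), Tcf7 at chr11:52143107-52174619 (minus), Lef1 at chr3:130903919-131018005 (plus), Bach2 at chr4:32238714-32586108 (plus) and Satb1 at chr17:52043114-52140622 (minus). RefSeq promoter windows were matched for 7 of the 9, over 15 transcription starts. The bases just upstream of Foxo1 (chr3:52175508-52175756, plus strand) and of Klf2 (chr8:73072656-73072725, plus strand), the pair of factors at the head of this program, are given 5′ to 3′. They come from the RefSeq promoter table of the GRCm38.p6 assembly, were placed on GRCm39 by an exact match found once, and end at the base before the annotated gene. Capitals mark the GC box (GGGCGG or its reverse complement) and the CCAAT box (CCAAT or its reverse complement).
Foxo1: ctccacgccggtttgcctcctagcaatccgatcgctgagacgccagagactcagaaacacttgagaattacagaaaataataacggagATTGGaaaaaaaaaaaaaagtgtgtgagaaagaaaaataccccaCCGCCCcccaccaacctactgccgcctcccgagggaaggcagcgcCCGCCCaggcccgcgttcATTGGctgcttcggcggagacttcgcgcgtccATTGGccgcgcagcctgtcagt
Klf2: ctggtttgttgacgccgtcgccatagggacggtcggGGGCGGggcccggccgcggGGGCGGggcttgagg
Foxo1 held 2 GC boxes and 3 CCAAT boxes in this stretch of 249 bases. Klf2 held 2 GC boxes and 0 CCAAT boxes in its 70 bases. Over the full 250 bases of their windows both genes had the same counts. Over all 32536 promoter windows, counting the 250 bases before the start and both strands, 33.0% held a GC box and 33.8% a CCAAT box. The letters TGTTTAC, bound by FOXO factors, were in 3.17% of all windows and in 0 of the 15 windows of these genes. The shorter letters CACCC (KLF factors) and CTTTG (TCF and LEF factors) were in 52.1% and 48.7% of all windows and so mark little by themselves. These matches describe the sequence and show no binding.

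Transcript levels were compared between genes in TPM, which scales counts by transcript length and by library total. Tcf7 was the most abundant, with a mean of 1001 TPM over the 16 samples (883 to 1172), above S1pr1 in 16 of 16. S1pr1 (mean 401 TPM, 253 to 577) and Klf2 (mean 391.5 TPM, 284 to 595) came next and were not separated, S1pr1 being the higher in 8 of 16 samples. Which of these 2 was higher followed the line. Klf2 was above S1pr1 in 8 of 8 samples of the HP1α line (1.15 to 1.85 times its TPM) and in 0 of 8 of the HP1γ line (0.555 to 0.884 times). Ccr7 followed with a mean of 199.1 TPM (119.5 to 307.5), below Klf2 in 16 of 16 samples and above Il7r in 15 of 16. Il7r (133.7 TPM) and Satb1 (125.2 TPM) were close, with Il7r the higher in 12 of 16. Lef1 had a mean of 97.7 TPM and was below Satb1 in 14 of 16 samples. Foxo1 was at 75.9 TPM, below Lef1 in 13 of 16. Bach2 was the least abundant, at 18.3 TPM (11.4 to 30.3), below Foxo1 in 16 of 16 samples.

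The genes differed in how much they varied. Over all 16 samples the highest CPM was 1.25 times the lowest for Tcf7 and 1.31 times for Lef1. It was 2.75 times the lowest for Ccr7, 2.3 times for S1pr1 and 2.06 times for both Bach2 and Satb1, with Klf2 (1.99), Foxo1 (1.7) and Il7r (1.69) between. Within a group of 4 samples the coefficient of variation of the CPM was 1.95% to 5.28% for Tcf7 and 12.5% to 27.4% for Ccr7.

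**Figure D1:**
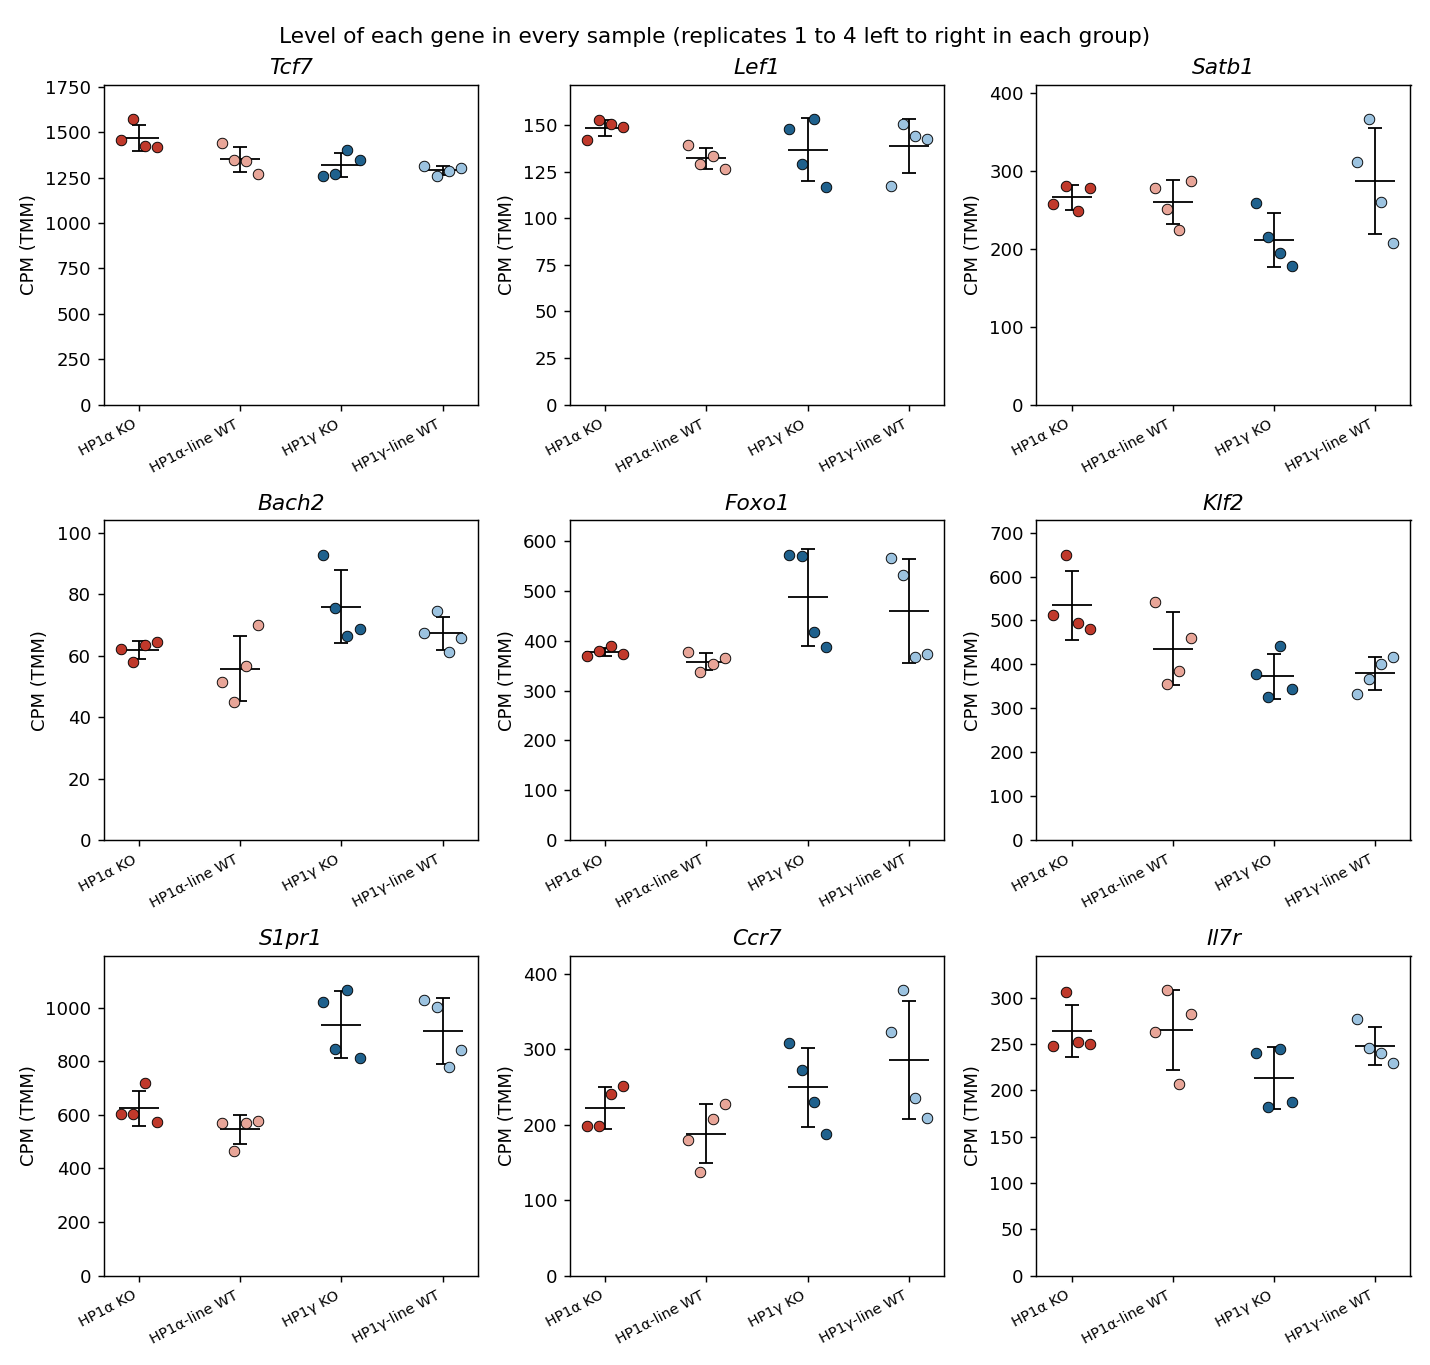
CPM of each of the 9 genes (y axis, linear, from 0) in the 16 samples, with 1 point per sample, the 4 groups along the x axis, and a bar at each group's mean with its SD (4 samples a group). S1pr1 lies lower in the HP1α line (463 to 719 CPM) than in the HP1γ line (777 to 1065 CPM), while Tcf7 and Lef1 stay within narrow ranges.

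To ask whether loss of HP1α changed the program, HP1a KO was compared with HP1a WT by edgeR's quasi-likelihood test, with p-values adjusted over all genes tested (Benjamini-Hochberg, called below 0.05). None of the 9 genes was called, and neither was any other: 0 of 14881 genes passed (0%), 635 (4.27%) were under an unadjusted p of 0.05, and DESeq2 called 8, none of the 9 among them. Log2 fold changes were positive for 8 of the 9 with a median of 0.15, beside a median of 0.0026 over all genes tested. As the cells are bulk samples, fewer cells of a type and less RNA per cell cannot be told apart in any of these comparisons.

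Lef1 stood out by its ranges. It was at 142, 153, 150.4 and 149 CPM in HP1a KO replicates 1 to 4 and at 139, 129, 133 and 126 CPM in HP1a WT. Every KO sample was above every WT sample, although the nearest pair differed by little. The log2 fold change was 0.17 (SE 0.0515, 95% interval 0.05 to 0.28, unadjusted p = 0.00829, adjusted p = 0.946). Ranges were that way round for 228 genes (1.53%), and Lef1 was the one of the 9 with this pattern and with an unadjusted p under 0.05. With all 16 samples in one fit the unadjusted p of Lef1 was 0.0658.

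Tcf7, the other member of its family, was at 1457, 1572, 1425 and 1419 CPM in HP1a KO and at 1442, 1349, 1339.5 and 1268 CPM in HP1a WT, with the highest WT sample inside the KO range. Each Tcf7 KO sample was above the WT sample of its own number. Its log2 fold change was 0.12 (SE 0.0567, interval -0.0048 to 0.25). Klf2 was at 512, 649.8, 494 and 482 CPM in HP1a KO and at 542, 356, 385 and 461 CPM in HP1a WT. Its largest value was that of HP1a KO replicate 2, WT replicate 1 lay among the KO samples, and the log2 fold change was 0.29 (SE 0.138, interval -0.014 to 0.60). It was 0.18 without HP1a KO replicate 2 and 0.42 without HP1a WT replicate 1. S1pr1 was at 601, 602, 719 and 572 CPM in HP1a KO and at 569.5, 463, 570.4 and 577 CPM in HP1a WT, with only a narrow overlap. The log2 fold change of S1pr1 was 0.19 (SE 0.0896, interval -0.0056 to 0.39). Without HP1a WT replicate 2, the lowest S1pr1 sample, it was 0.12.

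Ccr7 was at 199, 199, 241 and 252 CPM in HP1a KO and at 180.0, 138, 207 and 228 CPM in HP1a WT. In both genotypes replicates 3 and 4 were the higher ones, and each KO sample was above the WT sample of its own number. The log2 fold change was 0.24 (SE 0.143, interval -0.08 to 0.56). It was 0.12 without HP1a WT replicate 2 and 0.35 without HP1a WT replicate 4. The summed level of 10 B cell markers was at 526, 554, 1096 and 1074 CPM in HP1a KO and at 497, 450, 751 and 667 CPM in HP1a WT, thus also higher in replicates 3 and 4. B cells use CCR7 as well, and all 10 of these markers had a positive log2 fold change in the KO (median 0.64), none of them called. The cells had been enriched for CD4+ cells and then sorted, steps that deplete B cells. The part of any such cells left in the Ccr7 values was not tested. Il7r (fold 0.997 in HP1a KO against WT), Satb1 (1.02), Foxo1 (1.05) and Bach2 (1.11) had the smaller differences, with 95% intervals in log2 of -0.27 to 0.26, -0.15 to 0.22, -0.04 to 0.19 and -0.11 to 0.41.

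**Figure D2:**
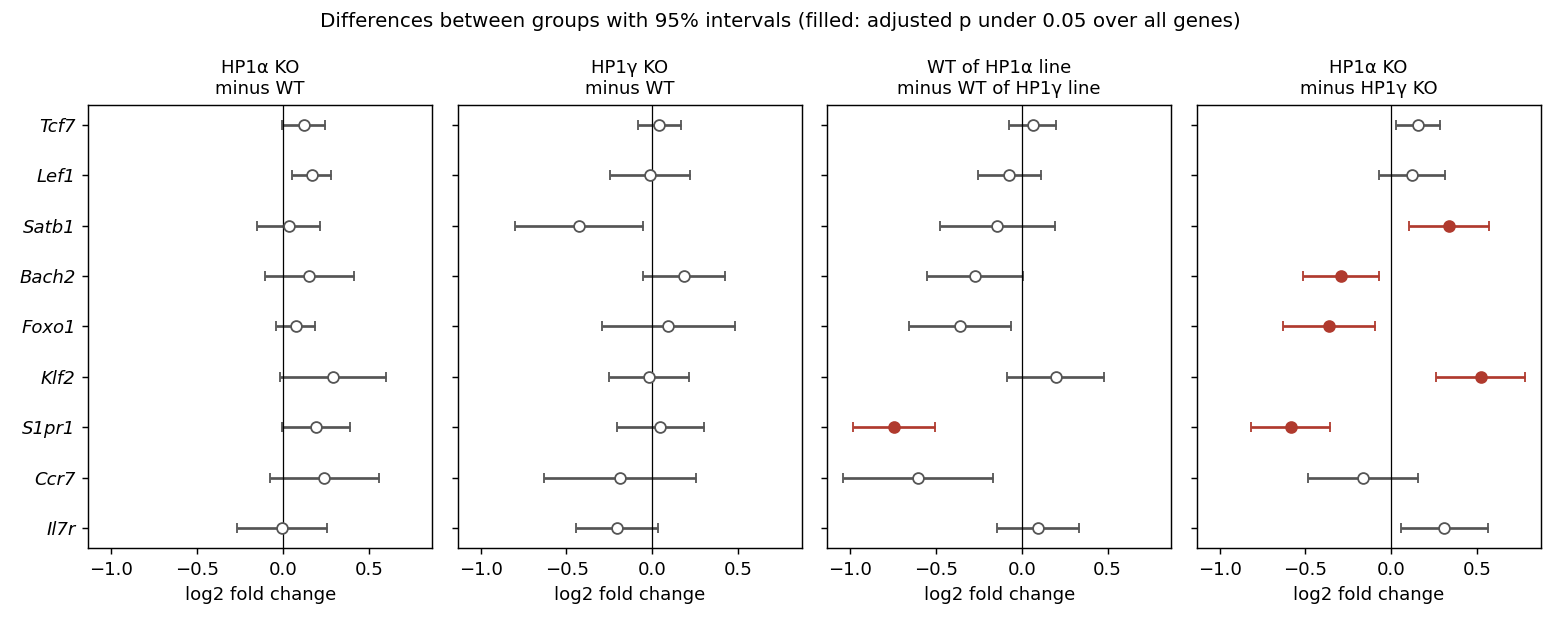
Log2 fold change of each gene (points) with its 95% interval (lines) in the 4 comparisons between groups, from edgeR, where filled points mark adjusted p below 0.05. Neither KO comparison holds a called gene, and S1pr1 is lower in the HP1α line in both comparisons between lines.

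The HP1γ line was asked the same question. HP1g KO against HP1g WT gave 49 calls of 14975 genes tested (0.327%), 38 higher and 11 lower, and none was among the 9 genes. At an unadjusted p under 0.05 stood 1784 genes (11.9%) and 1 of the 9, Satb1. DESeq2 called 265 genes and none of the 9. The log2 fold changes of the 9 had a median of -0.013, with 4 positive and 5 negative, beside 0.0005 over all genes tested. KO and WT ranges did not overlap for 1063 genes (7.1%), and overlapped for all 9 of these.

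Satb1 was at 258, 215, 195 and 178 CPM in HP1g KO replicates 1 to 4 and at 311, 366, 259.8 and 208 CPM in HP1g WT. It was lower in the KO on average, by -0.43 (SE 0.168, interval -0.80 to -0.06) on the log2 scale, a fold of 0.742, but WT replicate 4 was below 2 of the KO samples. Those were KO replicates 1 and 2, and each KO sample was below the WT sample of its own number. The unadjusted p of Satb1 was 0.0278 and its adjusted p 0.38. Il7r was at 240.0, 182, 245 and 187 CPM in HP1g KO and at 277, 245, 240.0 and 229 CPM in HP1g WT. KO replicates 2 and 4 were below every WT sample and the other two inside the WT range, with a log2 fold change of -0.21 (SE 0.108, interval -0.45 to 0.03, adjusted p = 0.483).

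Ccr7 was at 309, 272, 230.2 and 187 CPM in HP1g KO and at 323, 378, 235 and 208 CPM in HP1g WT. It was higher in replicates 1 and 2 of both genotypes, and each KO sample was below the WT sample of its own number. The log2 fold change of Ccr7 was -0.19 (SE 0.199, interval -0.63 to 0.25), and it ran from -0.32 without HP1g WT replicate 4 to -0.025 without HP1g WT replicate 2. Foxo1 was divided in the same way and more sharply. It was at 573 and 569.6 CPM in HP1g KO replicates 1 and 2 and at 417 and 388 CPM in replicates 3 and 4, and in HP1g WT at 565 and 532 against 367 and 374 CPM. Foxo1 thus formed 2 separate sets that each held both genotypes, and its log2 fold change between KO and WT was 0.09 (SE 0.175, interval -0.29 to 0.48). Each KO sample was above the WT sample of its own number. In the HP1α line Foxo1 stayed between 337 and 389 CPM.

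Bach2 was at 92.9, 75.5, 66.5 and 68.8 CPM in HP1g KO and at 67.4, 74.6, 61.3 and 65.7 CPM in HP1g WT. KO replicate 1 was the highest of the 8 samples, and the log2 fold change of Bach2 was 0.18 (SE 0.108, interval -0.06 to 0.42, adjusted p = 0.522), and 0.072 without that sample. Each KO sample was above the WT sample of its own number here too. The summed B cell markers were at 701, 668, 555 and 1060 CPM in HP1g KO and at 715, 809, 466 and 432 CPM in HP1g WT, higher in replicates 1 and 2 in WT, and highest of all in KO replicate 4, where Ccr7 was lowest. Of the other genes, S1pr1 (log2 fold change 0.05), Tcf7 (0.04), Lef1 (-0.01) and Klf2 (-0.02) had intervals of -0.21 to 0.30, -0.08 to 0.17, -0.24 to 0.22 and -0.25 to 0.21.

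Whether the KO effect differed between the lines was tested as an interaction over all 16 samples. Of 15776 genes tested 8 (0.0507%) were called, and none of the 9. For Satb1 the difference of the effects (HP1α line minus HP1γ line) was 0.47 (SE 0.203, interval 0.05 to 0.90, unadjusted p = 0.0323, adjusted p = 0.476). For Ccr7 it was 0.44 (SE 0.27, adjusted p = 0.651) and for Klf2 0.32 (SE 0.186, adjusted p = 0.623). The other 6 lay between -0.02 and 0.21.

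The WT samples of the lines were then compared with each other. Line, genetic background and handling cannot be told apart here. Of 14804 genes tested 1896 (12.8%) were called, 1222 of them (8.25%) lower in the HP1α line. Of the 9 genes S1pr1 was called and was lower in the HP1α line. S1pr1 was at 569.5, 463, 570.4 and 577 CPM in HP1a WT and at 1028, 1002, 777 and 842 CPM in HP1g WT. Every HP1a WT sample was below every HP1g WT sample, as for 1588 genes (10.7%). The log2 fold change of S1pr1 was -0.74 (SE 0.107, interval -0.98 to -0.51), a fold of 0.597, with adjusted p = 0.00378, and its call held in every alternative run, including the omission of each sample in turn.

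The other 8 genes were not called between the WT groups. Ccr7 had a log2 fold change of -0.60 (SE 0.198, interval -1.04 to -0.17, adjusted p = 0.0685), Foxo1 of -0.36 (SE 0.135, adjusted p = 0.103) and Bach2 of -0.27 (SE 0.126, adjusted p = 0.177). For Ccr7, HP1a WT replicates 1 to 3 (138 to 207 CPM) were below every HP1g WT sample, and HP1a WT replicate 4 (228 CPM) was above HP1g WT replicate 4 (208 CPM). Calls of these 3 changed with single samples: without HP1g WT replicate 4 the adjusted p of Ccr7 was 0.0316 and that of Foxo1 0.0497, without HP1g WT replicate 3 that of Foxo1 was 0.0494, and without HP1a WT replicate 4 that of Bach2 was 0.0468. DESeq2 gave Ccr7 an adjusted p of 0.0126 and Foxo1 one of 0.0499. Klf2, whose product activates S1pr1, was on the other side (log2 fold change 0.20, SE 0.128, adjusted p = 0.335). Il7r (0.09), Tcf7 (0.06), Lef1 (-0.07) and Satb1 (-0.14) had intervals of -0.15 to 0.34, -0.07 to 0.20, -0.26 to 0.11 and -0.48 to 0.19. The median of the 9 was -0.14, and that of all genes tested 0.015.

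The comparison of HP1a KO with HP1g KO holds the difference between the lines together with that between the KOs. It shares its KO samples with the comparisons within each line. Here 4921 of 15020 genes were called (32.8%), and 5 of the 9. S1pr1 was at 601, 602, 719 and 572 CPM in HP1a KO and at 1022, 845, 1065 and 812 CPM in HP1g KO, again with all values lower in the HP1α line (log2 fold change -0.58, SE 0.104, adjusted p = 0.00348). Klf2 was higher in HP1a KO (482 to 649.8 CPM) than in HP1g KO (327 to 443 CPM) in all samples, by 0.52 (SE 0.117, interval 0.26 to 0.78, adjusted p = 0.00852). Both calls held in the omission of each sample, that of Klf2 being lost only by limma on TPM with no filter on low values (adjusted p = 0.0671).

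Satb1 was higher in HP1a KO (log2 fold change 0.33, SE 0.105, adjusted p = 0.034), Foxo1 lower (-0.37, SE 0.121, adjusted p = 0.0417) and Bach2 lower (-0.29, SE 0.1, adjusted p = 0.047). Each of these 3 calls was lost when single samples were left out. The call of Foxo1 was lost without any one of HP1a KO replicates 1 to 4 or without HP1g KO replicate 1 or 2 (adjusted p 0.0592 to 0.12), and that of Bach2 in the same 6 omissions (0.0659 to 0.122). That of Satb1 was lost without HP1a KO replicate 1, 2 or 4 or HP1g KO replicate 2, 3 or 4 (0.0582 to 0.0824). Tcf7 (0.16, adjusted p = 0.0599) and Il7r (0.31, adjusted p = 0.0604) had all their HP1a KO samples above all HP1g KO samples without passing the threshold. Without HP1g KO replicate 3 both passed, Tcf7 with 0.0311 and Il7r with 0.0313. Lef1 (0.12) and Ccr7 (-0.17) had adjusted p-values of 0.304 and 0.407. Ranges did not overlap for 5 of the 9 (S1pr1, Klf2, Bach2, Tcf7 and Il7r), beside 4856 of all genes (32.3%), and the median log2 fold change of the 9 was 0.12 beside 0.01 over all genes.

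Markers of other cells differed between these groups too. The erythroid markers summed to 10.1 to 323 CPM in the HP1α line, to 619, 724, 50.8 and 508 CPM in HP1g KO and to 28.4, 295, 317 and 42.7 CPM in HP1g WT. Hba-a1 and Hbb-bs were lower in HP1a KO than in HP1g KO (log2 fold change -2.83 and -2.85, adjusted p = 0.0156 and 0.0174). Siglech and Tcf4, of plasmacytoid dendritic cells, were lower as well (-1.89 and -1.67). Ighm, of B cells, was higher (0.59), but the 10 B cell markers were split, 6 higher and 4 lower in HP1a KO. Ighm was the 1 of them called. Cd44, a marker of the sort, was lower in the HP1α line in WT (-0.35, SE 0.066) and in KO (-0.32, SE 0.06). The part of these in the values of the 9 genes was not tested.

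Covariation was measured as the correlation, across samples, of log2 CPM from which each group's mean had been subtracted, so that the differences above do not enter. The 9 genes give 36 pairs. Their Pearson r had a median of 0.21 over the 16 samples (-0.70 to 0.79), and 26 of 36 were positive. Pairs of one of the 9 with any other gene had a median of -0.016. With the mean of each replicate number of a line subtracted as well (a replicate block), the median of the 36 was 0.49, with 34 positive. The block makes each KO value the mirror of the same-numbered WT value, so these are not separate points. The -0.016 was taken without the block and is no baseline for 0.49. Because Foxo1 fell into 2 separate sets in the HP1γ line, of 4 samples each, no r across that line or across all samples is read for its pairs. Ccr7 was divided by the same replicates of that line, with a narrower gap (187 to 235 and 272 to 378 CPM), and its r values there include this division. Without Foxo1 the median over the 16 samples was 0.21 as well. Then 6 of 28 pairs (21.4%) had r above 0.5, 8 of 28 (28.6%) in the HP1α line and 7 of 28 (25.0%) in the HP1γ line. Among pairs of all 9 genes with other genes, here with Foxo1 included, the shares were 9.05%, 15.9% and 19.2%. Points share libraries and the RNA they were made from, and r is a description.

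Ccr7 and Bach2 had the highest r of the pairs that could be read. It was 0.79 over the 16 samples (Spearman's rho 0.87, permutation within groups, p = 0.00093 and 0.00012, not adjusted for the 36 pairs). Without the 2 samples farthest from the median of Ccr7 it was 0.80, and it was 0.89 in the HP1α line and 0.75 in the HP1γ line. With the replicate block it was 0.60. The permutation moved the samples of each group separately. It did not keep what same-numbered samples of a line share, which can make its p too small. In each of the 4 groups the 2 samples richest in Ccr7 were also the 2 richest in Bach2, replicates 3 and 4 in the HP1α line and 1 and 2 in the HP1γ line. The B cell marker sum was higher in the same replicates of the HP1α line and of HP1g WT, but not of HP1g KO. Its part in this r was not tested. Ccr7 and Satb1 had an r of 0.97 in the HP1γ line and of 0.11 in the HP1α line; the difference was not tested.

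Tcf7 ran the other way. With Bach2 its r was -0.70 (rho -0.77, permutation within groups, p = 0.014 and 0.00421), -0.75 without the 2 samples farthest from the median of Tcf7, and -0.65 and -0.78 in the HP1α and the HP1γ line. With Ccr7 it was -0.52 (rho -0.57, p by the same permutation 0.047 and 0.0265), -0.58 without the 2 farthest samples, and -0.54 and -0.55 in the lines. With the replicate number of each line subtracted as well (a replicate block), the r of Tcf7 and Ccr7 turned to 0.46, and that of Tcf7 and Bach2 was -0.34. In the 8 samples of the HP1α line, the r of Foxo1 was 0.54 with Ccr7 (exact permutation within groups, p = 0.307), 0.41 with Satb1 (exact p = 0.477) and 0.18 with Tcf7 (exact p = 0.74). It was higher with S1pr1 (0.80, exact p = 0.0312) and with Klf2 (0.72, exact p = 0.099), a choice of pairs made after their values were seen.

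**Figure D3:**
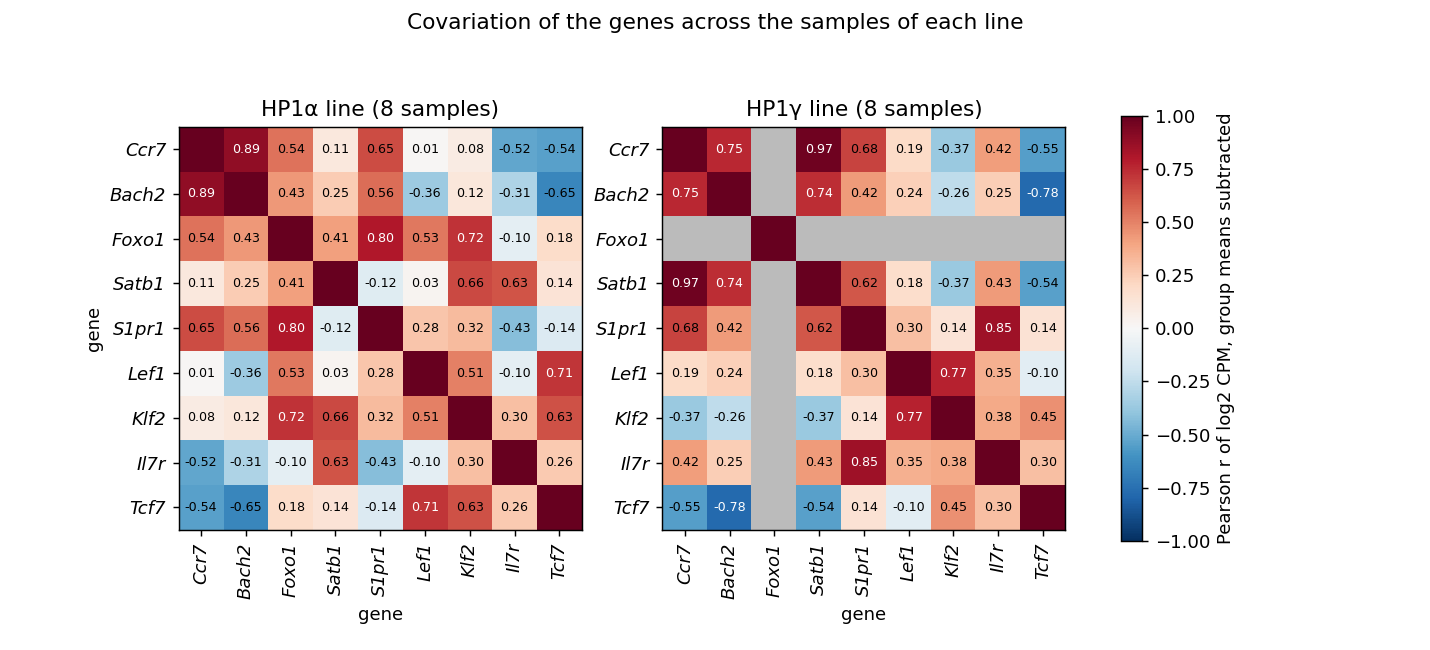
Pearson r (colour and printed number) of group-centred log2 CPM for each pair of genes, in the 8 samples of the HP1α line and the 8 of the HP1γ line; grey marks the pairs of Foxo1 in the HP1γ line, where its samples formed 2 sets. Ccr7 with Bach2 is high in both (0.89 and 0.75) and Tcf7 with Bach2 is negative in both (-0.65 and -0.78), while Ccr7 with Satb1 is high in the HP1γ line (0.97) and near 0 in the HP1α line (0.11).

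**Figure D4:**
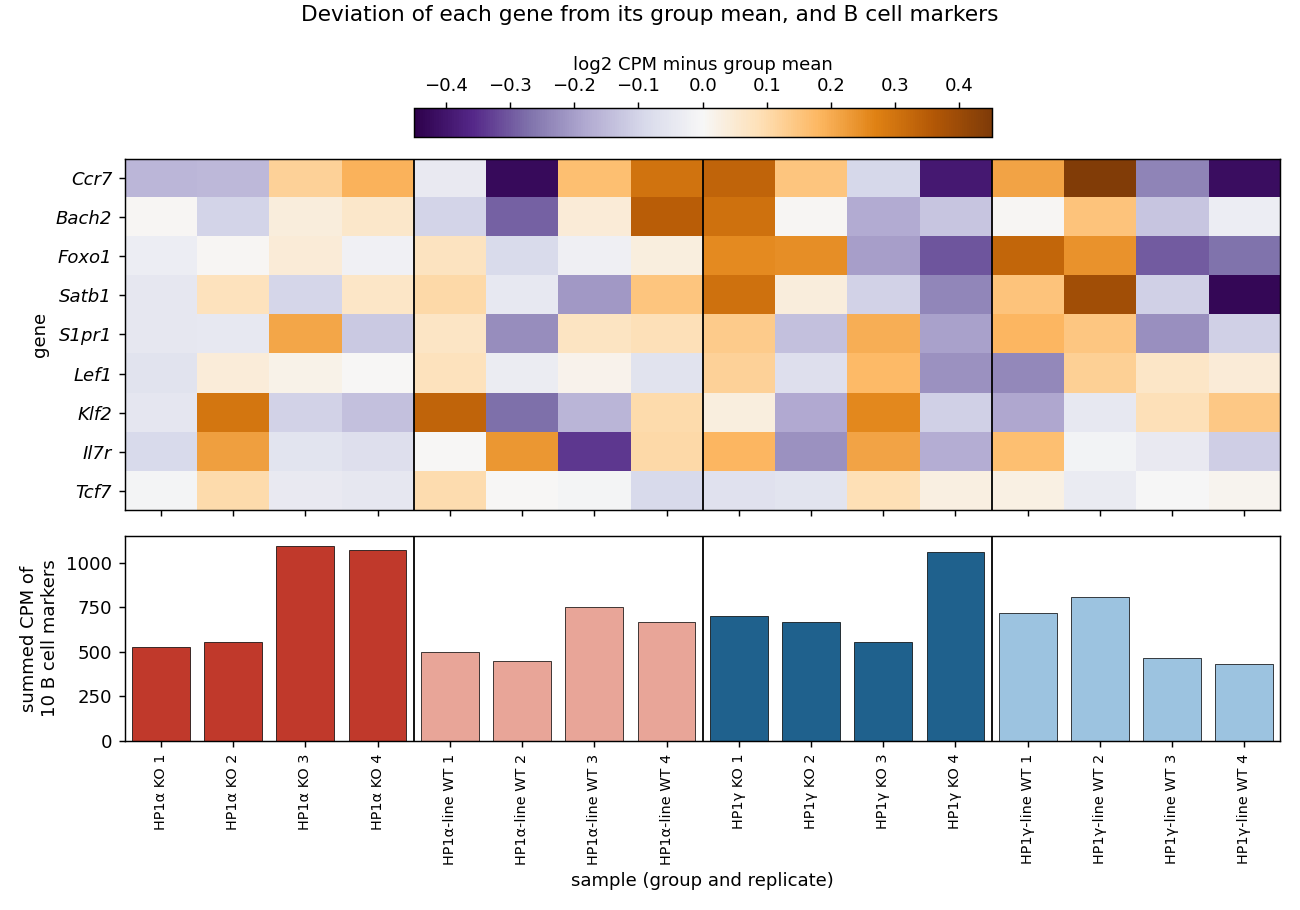
Deviation of each gene's log2 CPM from the mean of its own group (colour, log2 units) in each of the 16 samples, with the summed CPM of 10 B cell markers as bars from 0 in the lower panel. In the HP1γ line Foxo1, Ccr7 and Satb1 deviate upward in replicates 1 and 2 of both genotypes, while the bars are highest in HP1a KO replicates 3 and 4 and HP1g KO replicate 4 (1096, 1074 and 1060 CPM).

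The genes elsewhere in the transcriptome whose pattern was most like the mean pattern of the 9 were sought among 8356 genes with a mean of at least 10 CPM, over the 16 samples after subtraction of group means. Map3k14, the NF-κB-inducing kinase, had r = 0.902. Cd55, which restrains complement, had r = 0.889 and Tgfbr2, a TGF-β receptor chain, 0.887. Spryd7 (0.866), Frat1 (0.858), Pdlim1 (0.855), Maml1 (0.844), Crybg1 (0.843), Gm33104 (0.835) and Eef1aknmt (0.83) came next. Single members had their closest genes elsewhere. For the receptors these were Ifnar1 (0.958) and Uck2 (0.939) for Ccr7, Zfand2a (0.94) and Rpl8 (0.928) for S1pr1, and Tgtp1 (0.9) and Rapgef6 (0.876) for Il7r. For Klf2 they were Nckap5l (0.872) and Cic (0.864), for Bach2 Larp1 (0.909) and Pus7 (0.887), and for Satb1 Frat1 (0.892) and Snhg5 (0.888). None is given for Foxo1, whose HP1γ line samples were divided by replicate number. The mean pattern of the 9 still includes Foxo1. Tcf7 was followed by Atraid (0.889) and Nfx1 (0.872), and Lef1 by Sytl3 (0.809) and Rapgef4 (0.805). These are the highest of 8356 values each and carry no test.

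Other genes of the same program were read from a list of 30, all of which were tested. None was called in either KO, where the medians were 0.05 in the HP1α line and 0.03 in the HP1γ line. Between the WT groups 6 of the 30 were called, beside 12.8% of all genes tested. Dgka, a kinase that limits antigen receptor signalling, was higher in the HP1α line (log2 fold change 0.41, SE 0.079, adjusted p = 0.0114), as were Actn1 (0.55) and Pik3ip1 (0.37), the latter an inhibitor of PI3 kinase. Btg1, an antiproliferative factor (-0.58, SE 0.086, adjusted p = 0.00403), Klf13 (-0.63) and Tob1 (-0.39) were lower. Between the KO groups 11 of the 30 were called, 7 higher and 4 lower in HP1a KO, beside 32.8% of all genes tested. Actn1 (0.46), Cd27 (0.52) and Dgka (0.39) were among the higher ones, and Btg1 (-0.43), Klf13 (-0.53) and Bcl6 (-0.90) among the lower. The list thus held calls in both directions between lines, with medians of -0.02 in WT and 0.02 in KO.

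Of 22 effector genes none was called in either KO. Between the WT groups 4 were called, beside 12.8% of all genes tested, each lower in the HP1α line: Bhlhe40 (log2 fold change -1.01, SE 0.103), Fasl, the death ligand (-0.82), Irf4 (-1.05) and Prdm1, which encodes BLIMP1 (-0.48). In HP1a KO against HP1g KO (32.8% of all genes called) 6 were lower, among them Bhlhe40 (-1.01), Irf4 (-1.25), Prdm1 (-0.57), Fasl (-0.53) and Il2rb (-0.27), and Ccl5 was higher (0.44). Of 12 cell cycle genes none was called in either KO, though all 12 log2 fold changes were negative in both, with medians of -0.32 in HP1a KO and -0.21 in HP1g KO. Pcna, of this list, was lower in the HP1α line in WT (-0.33, adjusted p = 0.0191) and in KO (-0.33, adjusted p = 0.00851). The list as a whole lay the other way, with positive log2 fold changes for 11 of 12 in WT (median 0.28) and for 10 of 12 in KO (median 0.25), none of them called.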

How the data were processed

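Values were read from a deposited table of estimated counts per gene and from a deposited TPM table, both made by the authors from 16 libraries (Illumina Stranded mRNA Prep, paired reads of 150 bp). The submitters' processing notes name STAR, Salmon and GRCm39, and the study's methods Ensembl release 107. Estimated counts (11.6% not whole) were rounded, so that reads shared between related genes had been split by the authors' estimation. Samples were grouped by genotype and replicate number in their titles; a treatment label that describes transferred cells was not used. No 2 replicates of a group agreed within sampling noise.

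Genes were filtered with filterByExpr (minimum count 10), normalised by TMM and tested with edgeR 4.0.16 (quasi-likelihood F test, R 4.3.3) on the samples compared. The SE is the absolute log2 fold change divided by the square root of F, with 95% intervals from the t distribution. DESeq2 1.42.0 (Wald test) and limma 3.58.1 on log2(TPM + 1) or log2(TPM + 0.1) of genes with a mean TPM of at least 1 were among the alternatives; such fold changes understate those of low genes. CPM used TMM-scaled totals and correlations a prior count of 2. Permutations (100000, 2-sided) kept samples within their groups, as did the 576 exact rearrangements within each line. Neither kept same-numbered samples of a line together. The procedures were tested on counts simulated from the samples of HP1g KO against WT. There edgeR recovered 4% of 1.2-fold, 72% of 1.5-fold and 96% of 2-fold changes. Of its calls 10.5% were unchanged genes, and with no gene changed it made 0 calls. Each gene was simulated independently, without any spread that samples share. Only genes with a mean of at least 10 CPM were changed. The rates in the measured data may therefore differ.

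The members and lists were chosen with earlier results of these data known. Genes named were the 9 members, the 2 targeted genes, up to 6 called genes per list and comparison by smallest p, the 3 highest and 3 lowest pairs, the 10 genes most like the members' mean and the 2 most like each member except Foxo1. Cd3e, Cd4 and the pair Ccr7 and Satb1 were added after their values were seen.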

Additional observations from a re-analysis of the deposited data

Results flagged for a closer look

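In 36 groups of 4 samples (9 genes, 4 groups) 2 had a sample far from the other 3, where chance flags about 1 in 20 groups. S1pr1 was at 463.4 CPM in HP1a WT replicate 2, beside 569.5 to 577 CPM in the other samples of its group, a gap of 0.935 of the group's range. Il7r was at 306.3 CPM in HP1a KO replicate 2, beside 247 to 252 CPM in the others, a gap of 0.914 of the range. Neither gene was called in HP1a KO against WT.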

How the results depend on the processing

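Of 396 log2 fold changes of the 9 genes recomputed under other settings 364 kept their direction and side of the threshold, and of 432 recomputed with 1 sample left out 378 did. The number of genes called in HP1a KO against WT, 0 by edgeR, was 8 by DESeq2, 3 by limma on TPM (with either pseudocount, and with no filter), 1 with no filter on low counts, and 0 to 3 with 1 sample left out (3 without HP1a WT replicate 3 and 1 without HP1a WT replicate 4). In HP1g KO against WT, 49 calls became 265 by DESeq2, 96 with all 16 samples in one fit, 73 with no filter on low counts, 31 with at least 10 counts in every sample, 20 and 17 by limma on log2(TPM + 0.1) and log2(TPM + 1), 12 without the filter on TPM, and 30 to 49 with 1 sample left out (30 and 32 without HP1g KO replicate 1 and 2). Between the WT groups, 1896 calls became 1143, 1135 and 551 by the same 3 limma fits and 573 to 2185 with 1 sample left out (573 without HP1a WT replicate 1, 613 and 626 without HP1g WT replicate 1 and 2, 1040 and 1101 without HP1a WT replicate 4 and 2). Between the KO groups, 4921 became 2298 by limma with no filter and 3350 to 5202 with 1 left out. For the interaction, 8 became 78 by DESeq2, 14 with no filter on low counts, 3, 4 and 5 by the limma fits and 7 to 12 with 1 left out. Of the 9 genes, 1 called between the WT groups became 3 by DESeq2, 2 with all 16 samples or no filter on low counts, and 1 to 3 with 1 left out. The 5 called between the KO groups became 3 with all 16 samples and by limma with either pseudocount, 1 by limma with no filter, and 2 to 6 with 1 left out. Both KO comparisons and the interaction stayed at 0 throughout. The median r of 0.21 was 0.15 on TPM and 0.15 to 0.30 with 1 replicate number left out. The cause of these changes was not tested beyond the fewer samples or other genes that each setting takes.

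Small values that changed sign were, by limma on log2(TPM + 0.1) and then by both fits on log2(TPM + 1), Lef1 (0.123 and 0.122) and Klf2 (0.0419 and 0.0418) in HP1g KO against WT and Lef1 between the WT groups (0.0394 and 0.0389), and Foxo1 in the interaction (0.00864 with no filter). With 1 sample left out, Il7r ranged from -0.106 to 0.0762 and Satb1 from -0.0307 to 0.0846 in HP1a KO against WT. In HP1g KO against WT Lef1 ranged from -0.0885 to 0.0546, Klf2 from -0.109 to 0.0385, S1pr1 from -0.0214 to 0.107 and Foxo1 from -0.00135 to 0.206. In the interaction Foxo1 ranged from -0.121 to 0.0864 and Bach2 from -0.114 to 0.111.

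Replicate numbers recur across groups, but same-numbered samples did not deviate together enough to be treated as pairs: the correlations of their deviations from the group means were 0.108, 0.216, 0.228 and 0.094 in the HP1α line and averaged 0.0861 in the HP1γ line, -0.118 between the WT groups and -0.0375 between the KO groups, where every pair had to exceed 0.1. Each sample's own number was its best match for 3 of 4, 1 of 4, 0 of 4 and 1 of 4. With a replicate block, calls numbered 0 and 60 in the HP1a and HP1g KO comparisons, 577 between the WT groups, 4132 between the KO groups and 6 for the interaction. In those KO comparisons 1025 and 2462 genes had an unadjusted edgeR p under 0.05, beside 635 and 1784 without the block. Of the 9 genes 1 and 3 were called between the WT and KO groups, Foxo1 (adjusted p = 0.0621) and Bach2 (0.0725) no longer passing. The log2 fold change of Il7r in HP1a KO against WT was 0.0045 with the block, and the median r 0.49, with 18 of 36 pairs above 0.5 in place of 10.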
